A study of Rattus norvegicus with 9 samples.

Results

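Livers of rats with acute-on-chronic liver failure (ACLF) were compared between 3 rats treated with the UTOpiA circuit and 3 rats treated with an empty circuit, which are 6 of the 9 livers sequenced in bulk. All animals with ACLF were male Sprague-Dawley rats, 8 to 11 weeks old on delivery, whose common bile duct had been tied for 21 days and which then received 0.25 mg/kg lipopolysaccharide (LPS, a bacterial wall component) into the abdomen. From 1 h after LPS, whole blood was circulated outside the body for 2 h in both groups. In the empty group the circuit held neither cells nor an apheresis column. In the UTOpiA group it held a granulocyte and monocyte apheresis (GMA) column followed by alginate beads with organoids of human hepatocyte-like cells, grown from gene-edited induced pluripotent stem cells. At 24 h after LPS, livers were collected from rats with ACLF that were alive at that time, so rats that had died earlier entered neither group. The 3 normal livers are given beside the others as a reference level; whether those rats were connected to a circuit is not given in the sources used here. Of the 32883 genes in the deposited tables, 14089 had enough counts to be tested between the UTOpiA and empty livers. Genes were chosen for description when the 3 values of one group lay apart from the 3 values of the other, and the cytokines that the study already names were left aside.

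As background, LPS binds CD14 and Toll-like receptor 4 and activates NF-kB, which switches on cytokines, chemokines and its own inhibitors in macrophages, endothelium and hepatocytes. Hepatocytes in an inflamed or cholestatic liver make acute-phase proteins and reduce the enzymes of amino acid, bile acid and drug metabolism. The comparison asks how livers differ a day after the same injury when blood has passed the cell-filled circuit or the empty one.

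Between 14494047 and 17321677 reads were counted per ACLF library, and TMM factors, which correct for library composition, lay between 0.802 and 1.321 over the 9 livers. Hepatocyte markers were present in every library (all 12 listed were tested), and Alb, the albumin gene, took 3.59%, 1.54% and 3.31% of the counts in the UTOpiA livers and 1.65%, 3.91% and 1.58% in the empty livers, so the groups overlapped. A library of each group stood apart from its group. UTOpiA replicate 2 correlated across genes with empty replicates 1 and 3 (Pearson's r of log2 CPM, counts scaled to the library total, 0.9562 and 0.957) more closely than with UTOpiA replicates 1 and 3 (0.9465 and 0.934). Empty replicate 2 was the farthest from its own group (0.9241 and 0.9235) and lay nearer to UTOpiA replicates 1 and 2 (0.9377 and 0.9397). No gene here marks the treatment in the liver, so the labels of these livers could not be checked against the data and were used as given, and whether any were exchanged was not tested. Some fold changes and list medians moved by over 1.5 times when an ACLF liver was left out. Their range, or the value without the liver that moved them most, is given beside them. Genes are not independent replicates, and these correlations describe the libraries only.

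**Figure D1:**
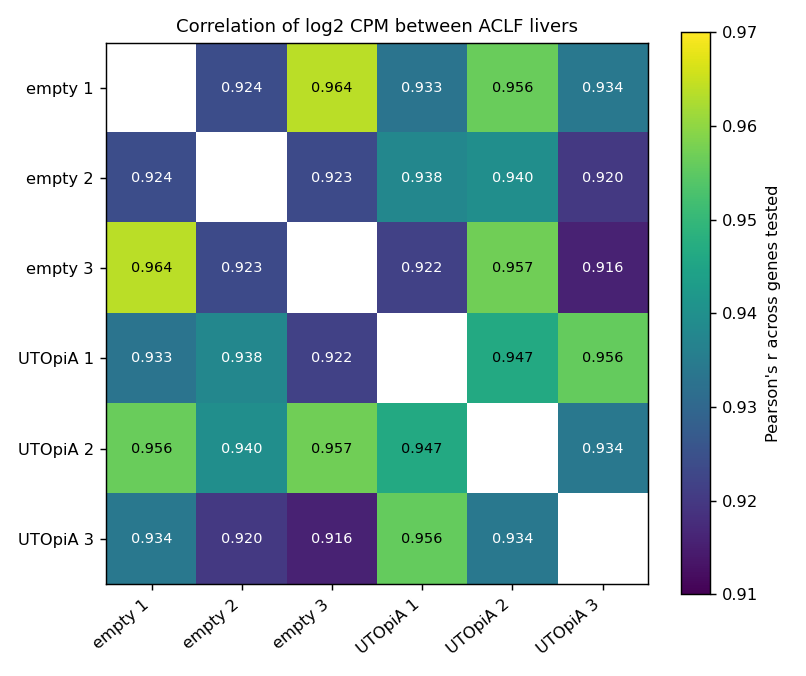
Pearson's r of log2 CPM across the 14089 genes tested for each pair of the 6 ACLF livers, on a colour scale and in figures. UTOpiA replicate 2 sits with empty replicates 1 and 3 (0.9562 and 0.957), and empty replicate 2 sits apart from them (0.9241 and 0.9235).

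With edgeR's quasi-likelihood test, 0 genes were called higher and 0 were called lower with UTOpiA (0% of the genes tested), where a call needs more than a 2-fold difference and an adjusted p (Benjamini-Hochberg) below 0.05; the smallest was 0.170. The edgeR test before adjustment put 1456 genes (10.3%) under the 0.05 level, of which 813 were higher (5.77%) and 643 lower (4.56%). DESeq2, the tool of the study's methods, called 53 higher (0.376%) and 71 lower (0.504%) on the same counts. These counts depended on single livers, at 353 and 134 without empty replicate 2, 228 and 349 without UTOpiA replicate 2, and 24 and 25 without UTOpiA replicate 1. Of those 124 genes, 29 were called in each of 6 DESeq2 fits that left out an ACLF liver in turn, 11 of them higher and 18 lower. No difference below is therefore past edgeR's threshold with all livers, and "higher" and "lower" describe where the values lay. All p-values for single genes are edgeR's unless DESeq2 is named, and are adjusted over all genes tested. DESeq2 gave no adjusted p for 63 genes, among them Cxcl1, Gadd45b and Cyp2c12. For these genes the ranges over the alternatives leave out DESeq2.

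The 3 UTOpiA values lay above all 3 empty values in 867 genes (6.15% of those tested) and below them in 841 (5.97%) in CPM after TMM, and genes of either kind are called separate here. A difference of more than 2-fold was found in 141 of the separate higher genes and 193 of the separate lower genes. The split depended on the scale. In TPM as deposited, a unit that takes each gene's length into account, 342 genes were separate and higher and 1214 separate and lower, and the median gene differed by -0.165 on the log2(TPM + 1) scale against 0.00121 in edgeR's fit. On both scales at once, 283 genes were separate and higher and 603 separate and lower, and genes were named from these. The gap of a gene is the ratio of the lowest TPM of the higher group to the highest TPM of the lower group, each with 0.5 added. Among genes open to naming with a mean of at least 5 TPM in the higher group, it was over 2-fold for 7 lower genes and for 1 higher gene, Lcn2.

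**Figure D2:**
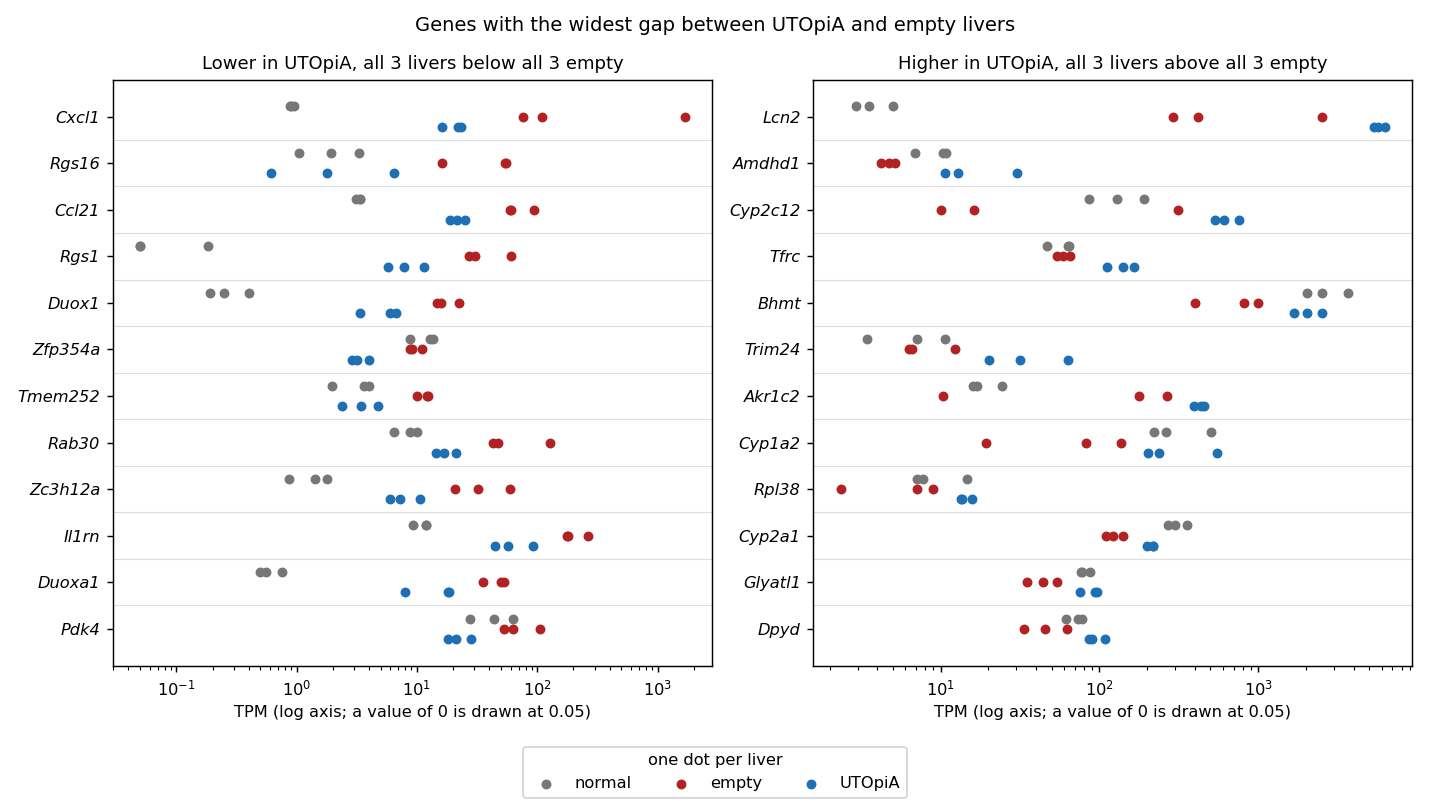
TPM in each liver (log axis) of the 12 genes with the widest gap in each direction, lower in UTOpiA on the left and higher on the right, with a dot per liver and colours for normal, empty and UTOpiA. Blue and red dots do not overlap in any line, as the rule for choosing the genes requires, and the single high red dot of Cxcl1, Lcn2 and Cyp2c12 is empty replicate 2.

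Genes of the LPS and NF-kB response were lower in UTOpiA livers in 29 of 30 tested, against 49.8% of all genes, with a median log2 fold change of -0.99 where the median of all genes was 0.00121. Of the 30, 10 were separate and lower (5.97% of all genes) and 0 separate and higher, 14 had an unadjusted p under 0.05 and were lower (4.56% of all genes), and 6 were DESeq2 calls, all lower (0.504% of all genes). The mean log2 CPM of the list was 5.02, 5.95 and 4.87 in the empty livers and 4.32, 4.55 and 3.65 in the UTOpiA livers, with no overlap, and 2.51, 2.26 and 2.28 in normal livers. Empty replicate 2 was the highest of all, and without it the median was -0.26 and 21 of 30 genes were lower. Without UTOpiA replicate 2 it was -1.19.

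Il1rn encodes the interleukin-1 receptor antagonist, a secreted blocker of interleukin-1 signalling. Its TPM were 177, 264 and 181 in the empty livers and 56.7, 92.7 and 44.4 in the UTOpiA livers, against 9.22 to 12 in normal livers. All 3 UTOpiA livers lay well below the empty ones, at a log2 fold change of -1.53 (SE 0.22, adjusted p = 0.170), with -1.71 to -1.31 when an ACLF liver was left out in turn and a DESeq2 adjusted p of 2.66e-06 (2.66e-06 to 0.610 over the alternatives). Zc3h12a encodes Regnase-1, an RNase that degrades inflammatory mRNAs, and had 20.7, 59.3 and 31.9 TPM in the empty and 6.02, 10.6 and 7.28 in the UTOpiA livers. Its log2 fold change was -2.03 (SE 0.39, adjusted p = 0.194). Cd14, the LPS co-receptor, had 136, 128 and 123 TPM in the empty livers and 39.5, 74.1 and 28.9 in the UTOpiA livers. The empty values of Cd14 were nearly the same in all 3 livers, with UTOpiA replicate 2 the nearest to them, and the log2 fold change was -1.31 (SE 0.27, adjusted p = 0.208). Nfkbia, the inhibitor that holds NF-kB in the cytoplasm, had 114, 634 and 150 TPM in the empty and 86.4, 113 and 42.5 in the UTOpiA livers. Nfkbiz, a nuclear partner of NF-kB, had 16.9, 129 and 26 TPM in the empty livers and 6.9, 10.4 and 8.52 in the UTOpiA livers. Both were separate and lower, at log2 fold changes of -1.77 (SE 0.60, adjusted p = 0.405) and -2.54 (SE 0.70, adjusted p = 0.348). Both sizes were set in part by empty replicate 2. Nfkbia was at -0.56 without empty replicate 2, and Nfkbiz at -1.08 without empty replicate 2 (edgeR adjusted p = 0.0874; 0.0874 to 0.810 over the fits without an ACLF liver). Nos2, the inducible nitric oxide synthase, was scarce, with 55, 116 and 57 counts in the empty livers, 3, 6 and 0 in the UTOpiA livers and 0 in every normal liver.

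Chemokines outside those that the study names were lower in 16 and higher in 8 of 24 tested, with a median log2 fold change of -0.72, which ran from -0.87 without UTOpiA replicate 2 to -0.41 without empty replicate 3, where 15 of 24 were lower without empty replicate 3. Among them 5 were separate and lower, against 5.97% of all genes, and 1, Ccl5, separate and higher, against 6.15%. Cxcl1, a neutrophil attractant, had the widest gap of all genes named here, with 75.4, 1680 and 110 TPM in the empty livers, 16.2, 23.2 and 22 in the UTOpiA livers and 0.877 to 0.945 in normal livers. The log2 fold change of Cxcl1 was -4.72 (SE 1.15, adjusted p = 0.304) with all livers and -1.94 (adjusted p = 0.0233; 0.0233 to 0.810 over the alternatives) without empty replicate 2, which held the highest value by far. Ccl21, the CCR7 ligand that draws dendritic cells and T cells, was even within groups, with 94.3, 60.6 and 59.4 TPM in the empty and 25.2, 18.7 and 21.7 in the UTOpiA livers. This gave a log2 fold change of -1.50 (SE 0.27, adjusted p = 0.178), and normal livers held 3.14 to 3.38 TPM. Ccl2, the monocyte attractant, had 30.4, 431 and 46.9 TPM in the empty livers and 8.98, 21.7 and 2.6 in the UTOpiA livers, so empty replicate 2 again exceeded the others. It had a log2 fold change of -3.86 (SE 1.06, adjusted p = 0.348) with that liver and -1.70 (adjusted p = 0.212; 0.0469 to 0.810 over the alternatives) without it. Ccl20, the ligand of CCR6, had 27.2, 110 and 32 TPM in the empty livers and 7.86, 16.3 and 5.51 in the UTOpiA livers and was listed at 0 in each normal liver, at a log2 fold change of -2.39 with all ACLF livers and -1.44 without empty replicate 2. Ccl5, a T cell attractant, went the other way with 18.8, 14.7 and 18.5 TPM in the empty and 37.6, 20.9 and 29.1 in the UTOpiA livers, separate at a log2 fold change of 0.99 (SE 0.29, adjusted p = 0.362). In TPM its groups stayed apart, with UTOpiA replicate 2 nearest to the empty values.

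Rgs16 and Rgs1 were also among the widest gaps. They encode regulators of G protein signalling, which shorten the active state of the G protein behind chemokine and other receptors. Rgs16 had 54.6, 54.1 and 16.2 TPM in the empty livers and 1.79, 6.47 and 0.617 in the UTOpiA livers, and normal livers held 1.04 to 3.3. Its log2 fold change was -3.77 (SE 0.77, adjusted p = 0.218), with -4.86 to -3.36 over the fits without an ACLF liver. Rgs1 had 30.4, 60.8 and 27.2 TPM in the empty livers and 7.84, 11.5 and 5.72 in the UTOpiA livers, at -2.09 (SE 0.39, adjusted p = 0.186), and was at 2, 0 and 0 counts in normal livers.

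Duox1 encodes a hydrogen peroxide-making NADPH oxidase and Duoxa1 the factor that brings it to the membrane. In the deposited positions the genes lie head to head (Duox1 at chromosome 3, 114253637 to 114286802, plus strand; Duoxa1 at chromosome 3, 114241057 to 114251647, minus strand; the submitters' notes name build rn6). Duox1 had 15.9, 14.6 and 22.2 TPM in the empty and 6.71, 5.97 and 3.39 in the UTOpiA livers, against 0.192 to 0.401 in normal livers, at a log2 fold change of -1.53 (SE 0.23, adjusted p = 0.170). Duoxa1 had 35.2, 49.7 and 53.3 TPM in the empty livers and 18.2, 18.5 and 7.89 in the UTOpiA livers, at -1.47 (SE 0.23, adjusted p = 0.170). Both genes were separate by the rule that named them, and both were DESeq2 calls in every fit without an ACLF liver.

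Promoter sequence is shown for Cxcl1 and Rgs16, the lower genes with the widest gap between the groups, and for Lcn2 and Cyp2c12, the higher genes with the widest gap among those matched to a RefSeq promoter. The sequences are RefSeq, build GRCr8, 250 bases upstream of the annotated start on the gene's strand, 5′ to 3′. RefSeq promoters matched 71 of the 85 genes named by the rule.
Cxcl1 (chr14:17479322-17479571, minus strand): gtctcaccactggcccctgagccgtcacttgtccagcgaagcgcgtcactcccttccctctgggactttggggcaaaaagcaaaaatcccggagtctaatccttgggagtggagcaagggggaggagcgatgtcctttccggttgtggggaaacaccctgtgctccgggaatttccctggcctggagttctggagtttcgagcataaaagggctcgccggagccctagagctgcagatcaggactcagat
Rgs16 (chr13:68437870-68438119, plus strand): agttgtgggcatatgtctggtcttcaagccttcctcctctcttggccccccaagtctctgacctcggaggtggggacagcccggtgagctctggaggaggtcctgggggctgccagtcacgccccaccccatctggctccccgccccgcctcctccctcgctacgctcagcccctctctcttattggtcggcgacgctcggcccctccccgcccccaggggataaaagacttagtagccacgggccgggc
Lcn2 (chr3:36081781-36082030, minus strand): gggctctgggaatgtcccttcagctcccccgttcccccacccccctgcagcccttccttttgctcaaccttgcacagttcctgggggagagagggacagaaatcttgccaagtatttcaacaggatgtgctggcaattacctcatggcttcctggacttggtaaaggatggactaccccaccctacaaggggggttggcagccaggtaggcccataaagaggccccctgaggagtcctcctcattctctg
Cyp2c12 (chr1:248677035-248677284, minus strand): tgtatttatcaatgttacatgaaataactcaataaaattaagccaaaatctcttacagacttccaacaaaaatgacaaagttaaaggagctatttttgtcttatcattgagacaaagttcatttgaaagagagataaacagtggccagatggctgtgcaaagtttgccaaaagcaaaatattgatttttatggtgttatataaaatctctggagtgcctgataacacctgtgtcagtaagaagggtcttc
G and C made up 58% of the bases in the Cxcl1 sequence and 66.8% in that of Rgs16, against 57.2% for Lcn2 and 32.8% for Cyp2c12. The median was 58.4% over 470 promoters of genes separate and lower in both CPM and TPM, 58.8% over 203 of those separate and higher, and 59.6% over the 10843 promoters of genes tested.

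Immediate early transcription factors, which are induced within minutes of a stimulus, were lower in 25 of 25 tested with a median log2 fold change of -1.59, and 4 were separate and lower, against 5.97% of all genes. This list rested on empty replicate 2. Its mean log2 CPM was 3.26, 6.19 and 3.62 in the empty livers against 3.62, 3.28 and 3.01 in the UTOpiA livers, and without that liver the median was -0.11 with 16 of 25 lower. Dusp1, a phosphatase of MAP kinases that the list holds though it is not a transcription factor, had 33.9, 206 and 51.6 TPM in the empty and 28.4, 27.8 and 23.7 in the UTOpiA livers. Fosl2, an AP-1 subunit, had 11.3, 53.1 and 9.87 TPM in the empty livers and 4.64, 6.41 and 5.83 in the UTOpiA livers. Gadd45b, a stress-induced adaptor of MAP kinase signalling, is not in the list. It had 37.7, 282 and 36.2 TPM in the empty livers and 12.4, 20.9 and 11.6 in the UTOpiA livers, where normal livers held 0.446 to 0.673. In all 3 genes the value of empty replicate 2 was several times those of the other empty livers. The log2 fold change of Dusp1 was -1.67, and -0.45 without empty replicate 2, and that of Fosl2 was -1.93, and -0.69 without empty replicate 2. The log2 fold change of Gadd45b went from -2.83 (SE 0.77, adjusted p = 0.346) to -1.13 (adjusted p = 0.0567; 0.0567 to 0.810 over the alternatives) without it.

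Interferon-stimulated genes were lower in 29 of 34 tested, with a median log2 fold change of -0.54 (-0.78 without UTOpiA replicate 1 to -0.23 without UTOpiA replicate 3; -0.32 without empty replicate 3). Of the 34, 4 were separate and lower, against 5.97% of all genes, and 3 separate and higher, against 6.15%. The mean log2 CPM of the list was 3.72, 4.12 and 4.48 in the empty and 3.88, 3.80 and 3.00 in the UTOpiA livers, which overlapped. Ifit3, an interferon-induced antiviral protein, had 10.3, 13.1 and 24.2 TPM in the empty and 4.6, 5.94 and 1.8 in the UTOpiA livers, at -1.79 (SE 0.40, adjusted p = 0.264). Isg15, a ubiquitin-like modifier, had 9.24, 9.34 and 44.6 TPM in the empty livers and 6.43, 8.25 and 4.21 in the UTOpiA livers, at a log2 fold change of -1.52 with all livers and -0.45 without empty replicate 3. The separate higher members were Ddx58, Igtp and Irgm.

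Acute-phase genes were higher in 15 of 21 tested and lower in 6 (median 0.37; 0.17 without UTOpiA replicate 3 to 0.56 without UTOpiA replicate 2). Of the 21, 3 were separate and higher (Apcs, Fgl1 and Lcn2, against 6.15% of all genes) and 4 separate and lower (Cd14, Il1rn, Steap4 and Tifa, against 5.97%). Cd14 and Il1rn also count in the LPS and NF-kB list. Summed TPM was 95300, 76700 and 75300 in the empty and 96300, 97600 and 114000 in the UTOpiA livers, apart by a narrow gap. The mean log2 CPM of the list overlapped. Lcn2 encodes lipocalin-2, an iron-siderophore binding protein made by inflamed hepatocytes and stored in neutrophil granules. It had the widest gap among the higher genes, with 290, 2520 and 417 TPM in the empty livers and 6310, 5690 and 5360 in the UTOpiA livers, against 2.95 to 5.03 in normal livers. The UTOpiA values of Lcn2 were alike and empty replicate 2 was nearest to them. In edgeR's fit the log2 fold change was 2.63 (SE 0.75, adjusted p = 0.349) with all livers and 4.27 (adjusted p = 0.00492; 0.00492 to 0.810 over the alternatives) without empty replicate 2, and DESeq2 gave an adjusted p of 0.00923. Apcs, the serum amyloid P component, had 697, 656 and 565 TPM in the empty livers and 1040, 925 and 904 in the UTOpiA livers, at 0.79 (SE 0.22, adjusted p = 0.346). Steap4, a metalloreductase, had 324, 407 and 208 TPM in the empty and 57, 138 and 104 in the UTOpiA livers, at -1.46 (SE 0.35, adjusted p = 0.270).

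Lcn2 was the only neutrophil marker of 13 tested with a positive log2 fold change, and the median of that list was -0.63 (-1.05 without empty replicate 2 to -0.18 without empty replicate 3). The summed TPM of the other 12 were 688, 238 and 1240 in the empty livers and 463, 613 and 207 in the UTOpiA livers, which overlap, and 13.1, 8.0 and 12.5 in normal livers. Mpo, Elane, Prtn3 and Ctsg, the primary granule genes, had too few counts to be tested.

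**Figure D3:**
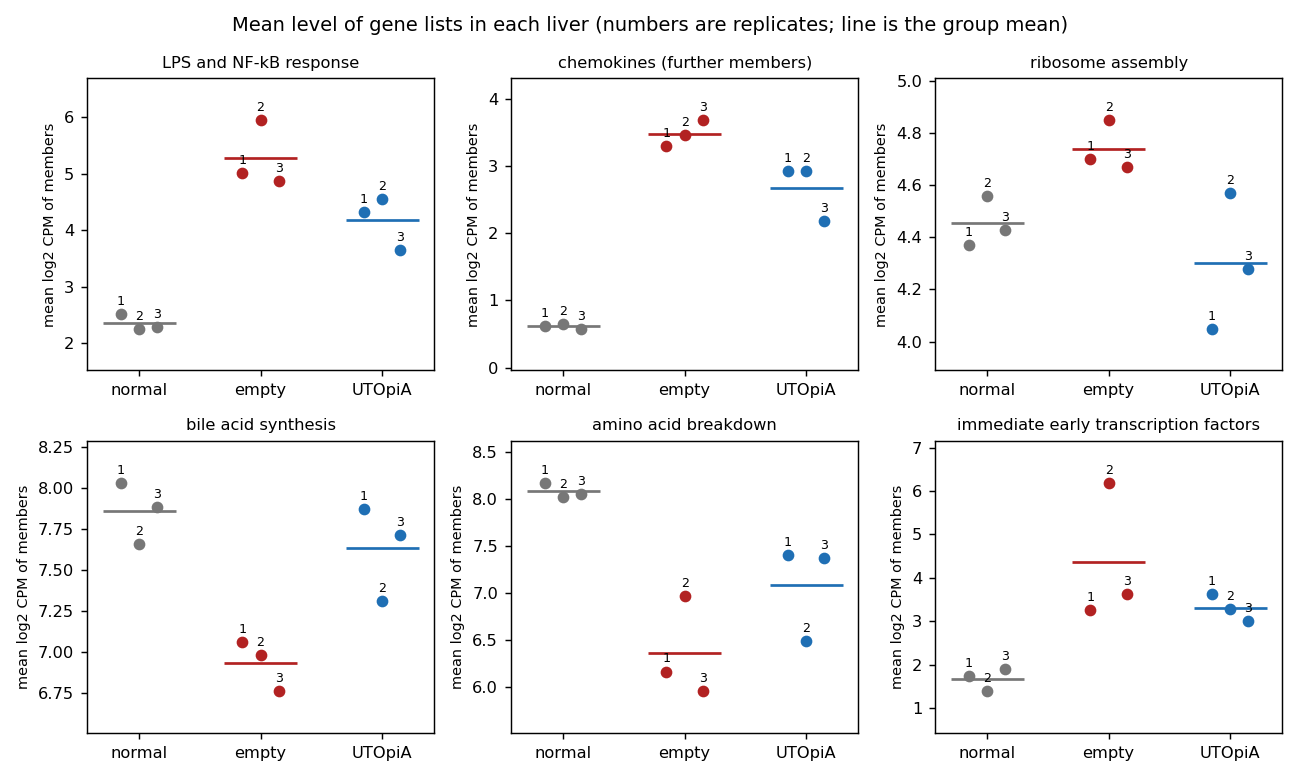
Mean log2 CPM over the members of 6 gene lists in each liver, with a numbered dot per replicate and a line at the group mean for normal, empty and UTOpiA livers. UTOpiA and empty dots do not overlap for the LPS and NF-kB response, further chemokines, ribosome assembly and bile acid synthesis, whereas empty replicate 2 lies inside the UTOpiA range for amino acid breakdown and far above all other livers for immediate early transcription factors.

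Ribosome assembly factors, the nucleolar proteins that process ribosomal RNA, were lower in 33 of 35 tested at a median log2 fold change of -0.40, and 17 of the 35 were separate and lower, where 5.97% of all genes were. Their mean log2 CPM was 4.70, 4.85 and 4.67 in the empty livers, 4.05, 4.57 and 4.28 in the UTOpiA livers and 4.37, 4.56 and 4.43 in normal livers. The groups with ACLF did not overlap, and UTOpiA replicate 2 was nearest to the empty livers. The median stayed between -0.50 and -0.32 when an ACLF liver was left out, with 33 to 35 genes lower. Mybbp1a, a nucleolar regulator of ribosomal RNA transcription, had 31.4, 33.2 and 37.6 TPM in the empty and 19.2, 25.4 and 15.6 in the UTOpiA livers, at -0.58 (SE 0.15, adjusted p = 0.301). Rrp9, a component of the small-subunit processome, had 13, 14.2 and 17.7 TPM in the empty livers and 5.6, 11.2 and 7.49 in the UTOpiA livers. Log2 fold changes in this list ran from -1.29 to 0.05. Of the 35, 0 were DESeq2 calls, where 0.504% of all genes were called lower.

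Further separate lower genes of the widest gaps and highest levels had mixed roles. Ifrd1, a transcriptional co-regulator, had the smallest DESeq2 adjusted p of all genes, 5.36e-09 (5.36e-09 to 0.610 over the alternatives), with 122, 175 and 168 TPM in the empty livers and 59.3, 78.4 and 46.9 in the UTOpiA livers. This gave a log2 fold change of -1.15 (SE 0.15, adjusted p = 0.170), and -1.26 to -1.04 over the fits without an ACLF liver. Slc25a47, a mitochondrial carrier of the liver, had 458, 290 and 313 TPM in the empty livers and 159, 112 and 85 in the UTOpiA livers against 58.3 to 80.3 in normal livers, at -1.40 (SE 0.28, adjusted p = 0.194). Pdk4 encodes a kinase that shuts pyruvate dehydrogenase in fasting, and had 105, 62.5 and 53.4 TPM in the empty and 18.2, 28.3 and 21.2 in the UTOpiA livers. Normal livers held 27.5 to 62.3 TPM, a range that overlapped both ACLF groups, and the log2 fold change was -1.53 (SE 0.36, adjusted p = 0.270). Zfp354a, a zinc finger repressor, had 8.67, 11.1 and 9.04 TPM in the empty livers and 2.89, 3.99 and 3.18 in the UTOpiA livers against 8.79 to 13.5 in normal livers, so here the UTOpiA livers were the ones away from normal. Its log2 fold change was -1.32 (SE 0.22, adjusted p = 0.177). Tmem252, a membrane protein, had 9.95, 12.4 and 12.1 TPM in the empty livers and 3.44, 4.7 and 2.4 in the UTOpiA livers, at -1.54 (SE 0.26, adjusted p = 0.177). Rab30, a small GTPase of the Golgi, had 46.8, 127 and 43 TPM in the empty livers and 14.3, 21.3 and 16.7 in the UTOpiA livers, at -1.86 (SE 0.42, adjusted p = 0.270) and -1.16 without empty replicate 2. Igfbp1, a binding protein of insulin-like growth factors made by hepatocytes, had 1400, 2290 and 911 TPM in the empty and 322, 805 and 268 in the UTOpiA livers, where normal livers held 1.72 to 8.77. The log2 fold change was -1.62 (SE 0.57, adjusted p = 0.408), and its empty values were spread widely.

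Of 7 erythroid markers tested, 4 were lower and 3 higher, and the 3 that were separate and lower, against 5.97% of all genes, are haemoglobin genes. The median of the list was -0.77, with -1.06 without UTOpiA replicate 3 to -0.25 without empty replicate 2. Its mean log2 CPM was 4.06, 4.91 and 4.20 in the empty and 4.23, 3.29 and 4.23 in the UTOpiA livers, which overlapped. Hbb, a beta-globin gene, had 1220, 1200 and 1030 TPM in the empty and 599, 367 and 487 in the UTOpiA livers, at -1.01 (SE 0.46, adjusted p = 0.499). Hba-a1, an alpha-globin gene, had 952, 2000 and 1480 TPM in the empty livers and 575, 351 and 565 in the UTOpiA livers, and Hba-a2 was also separate and lower. Globin genes are near-identical copies whose reads the counting may have split, so the values of single copies are uncertain. The summed TPM of erythroid markers, most of it from the globins, ranged from 2540 to 4060 in the empty livers, 844 to 1410 in the UTOpiA livers and 109 to 312 in normal livers; their part in other differences was not tested.

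Enzymes of amino acid breakdown were higher in 38 of 41 tested, with a median log2 fold change of 0.62, and 6 were separate and higher, against 6.15% of all genes. Of the 41, 11 had an unadjusted p under 0.05 and were higher (5.77% of all genes), and 4 were DESeq2 calls, all higher (0.376% of all genes). With an ACLF liver left out, the median ran from 0.35 without empty replicate 3 to 1.11 without empty replicate 2. Mean log2 CPM of the list was 6.16, 6.96 and 5.95 in the empty and 7.40, 6.48 and 7.37 in the UTOpiA livers, which overlapped through the second replicate of each group, and 8.17, 8.02 and 8.05 in normal livers.

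Of the 6 separate members, Hal, Amdhd1 and Ftcd act in histidine breakdown, a grouping made after their values were seen. Hal, histidine ammonia-lyase, makes the first step, and had 16.3, 7.52 and 9.01 TPM in the empty and 48, 22.3 and 22.5 in the UTOpiA livers, against 98.2 to 112 in normal livers. Amdhd1, imidazolonepropionase, makes a middle step, and had 4.22, 5.13 and 4.71 TPM in the empty livers and 30.3, 12.9 and 10.6 in the UTOpiA livers, where normal livers held 6.87 to 10.9. Ftcd, which passes the remaining formimino group to folate, had 114, 136 and 107 TPM in the empty livers and 259, 209 and 158 in the UTOpiA livers. Uroc1, urocanate hydratase, makes the step between Hal and Amdhd1 and was not separate, with 25.6, 64.1 and 19.3 TPM in the empty and 70.3, 25.5 and 42.5 in the UTOpiA livers, at 0.57 (SE 0.51, adjusted p = 0.734), from 0.20 without UTOpiA replicate 1 to 1.27 without empty replicate 2. The 3 separate genes had log2 fold changes of 1.69 (SE 0.39, adjusted p = 0.270), 2.13 (SE 0.38, adjusted p = 0.178) and 1.00 (SE 0.20, adjusted p = 0.194). Amdhd1 was the most even of the 3 in the empty livers and was a DESeq2 call in each fit without an ACLF liver. In the deposited positions Hal (chromosome 7, 34326087 to 34356413, plus strand) and Amdhd1 (chromosome 7, 34361633 to 34406318, minus strand) lie near each other on opposite strands without overlapping. Bhmt, which remethylates homocysteine with betaine, had 398, 1000 and 817 TPM in the empty livers, 2540, 2020 and 1670 in the UTOpiA livers and 2030 to 3670 in normal livers, at 1.71 (SE 0.38, adjusted p = 0.264). Kynu, kynureninase of the tryptophan pathway, had 31.5, 31.7 and 28.2 TPM in the empty livers and 69.1, 43.2 and 63.2 in the UTOpiA livers, at 1.19 (SE 0.26, adjusted p = 0.264).

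Bile acid synthesis genes were higher in 12 of 15 tested, at a median log2 fold change of 0.63, with 2 separate and higher (Acox2 and Baat), against 6.15% of all genes. Their mean log2 CPM was 7.06, 6.98 and 6.76 in the empty livers and 7.87, 7.31 and 7.71 in the UTOpiA livers, with no overlap, and 8.03, 7.66 and 7.88 in normal livers. Leaving out an ACLF liver gave medians of 0.34 without UTOpiA replicate 3 to 0.86 without UTOpiA replicate 2. Baat, which joins bile acids to taurine or glycine, had 433, 522 and 357 TPM in the empty and 1260, 707 and 748 in the UTOpiA livers, at 1.26 (SE 0.31, adjusted p = 0.283). UTOpiA replicate 1 lay within the 1030 to 1290 TPM of normal livers, and the other UTOpiA livers below it. Acox2, a peroxisomal oxidase that shortens the bile acid side chain, had 178, 94.6 and 159 TPM in the empty livers and 208, 225 and 263 in the UTOpiA livers, at 0.93 (SE 0.31, adjusted p = 0.395).

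Drug-metabolising cytochrome P450 genes were higher in 25 of 36 tested, at a median log2 fold change of 0.53 (0.26 without UTOpiA replicate 1 to 1.00 without empty replicate 2). Of the 36, 4 were separate and higher, against 6.15% of all genes, and 1 separate and lower, against 5.97%. The mean log2 CPM overlapped, with empty replicate 2 at 6.17 and UTOpiA replicate 2 at 5.86. Cyp1a2, the caffeine-metabolising P450, had 82.2, 137 and 19.4 TPM in the empty livers and 239, 203 and 550 in the UTOpiA livers, against 220 to 504 in normal livers. Both ACLF groups were spread widely, and its log2 fold change was 2.35 (SE 0.78, adjusted p = 0.395), or 1.504 without UTOpiA replicate 3. Cyp2a1, a steroid hydroxylase, was even within groups, with 140, 122 and 110 TPM in the empty livers and 199, 219 and 217 in the UTOpiA livers, at 0.99 (SE 0.25, adjusted p = 0.309). Cyp17a1, a steroid 17-hydroxylase, had 3.52, 4.99 and 8.74 TPM in the empty livers and 26.3, 23.5 and 11.4 in the UTOpiA livers, at 2.01 (SE 0.34, adjusted p = 0.177), and was a DESeq2 call in each fit without an ACLF liver. Cyp2c12, known as the female-typical P450 of rat liver, had 10, 312 and 16.3 TPM in the empty and 533, 609 and 757 in the UTOpiA livers of these male rats, where normal livers held 85.7 to 191. Here the UTOpiA livers exceeded normal livers as well as empty ones. Empty replicate 2 lay above the other empty livers and the normal livers, but below every UTOpiA liver. In edgeR's fit the log2 fold change was 2.72 (SE 1.16, adjusted p = 0.469) with all livers and 5.87 (adjusted p = 0.00879; 0.00879 to 0.832 over the alternatives) without empty replicate 2. Cyp2c11, the male-typical P450, had 1990 to 2230 TPM in normal livers, 0.708, 6.7 and 0.375 in the empty livers and 1.26, 0.127 and 0.702 in the UTOpiA livers. P450 genes of the 2C family are similar in sequence, and reads shared between copies make single values uncertain.

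Other separate higher genes of the widest gaps included enzymes of further pathways. Akr1c2, an aldo-keto reductase of steroids, had 266, 177 and 10.3 TPM in the empty and 439, 454 and 395 in the UTOpiA livers, well above the 16 to 24.3 of normal livers. Empty replicate 3 lay below every normal liver, and the log2 fold change was 1.66 (SE 0.85, adjusted p = 0.540), or 1.10 without empty replicate 3. Glyatl1, a glycine acyltransferase, had 54.2, 44 and 34.9 TPM in the empty livers and 94.3, 96.1 and 75 in the UTOpiA livers against 76.1 to 87.9 in normal livers, at 1.18 (SE 0.20, adjusted p = 0.177). Dpyd, which starts pyrimidine breakdown, had 45.7, 63 and 33.3 TPM in the empty livers and 108, 89.7 and 86 in the UTOpiA livers, at 1.20 (SE 0.27, adjusted p = 0.270). Among abundant genes, Lipa, the lysosomal acid lipase, had 131, 113 and 105 TPM in the empty and 209, 168 and 184 in the UTOpiA livers, at 0.91 (SE 0.24, adjusted p = 0.321). Aqp9, a glycerol and urea channel of hepatocytes, had 172, 128 and 103 TPM in the empty livers and 219, 209 and 221 in the UTOpiA livers, at 0.90 (SE 0.26, adjusted p = 0.349). Gne, which starts sialic acid synthesis, had 58.3, 65.9 and 60.9 TPM in the empty livers and 128, 81.3 and 93 in the UTOpiA livers, at 0.93 (SE 0.23, adjusted p = 0.283). The copy named Rpl38 on chromosome 8 met the same rule, but reads of ribosomal protein copies may be shared, so its values are not described.

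Tfrc and Trim24 exceeded normal livers as well as empty ones. Tfrc, the transferrin receptor that takes up iron, had 58.9, 65.7 and 54.1 TPM in the empty livers, 165, 112 and 141 in the UTOpiA livers and 63.8, 64.3 and 46.8 in normal livers. Empty and normal livers were alike and the UTOpiA livers all above both, at a log2 fold change of 1.46 (SE 0.26, adjusted p = 0.178) and a DESeq2 adjusted p of 7.46e-05 (7.46e-05 to 0.610 over the alternatives). Without UTOpiA replicate 2, the lowest of its group, it was 1.69 (adjusted p = 0.0378). Trim24, a co-regulator of nuclear receptors, had 6.31, 12.4 and 6.65 TPM in the empty and 63.8, 20.2 and 31.7 in the UTOpiA livers, against 3.42 to 10.7 in normal livers. Its UTOpiA values were spread widely, at 2.42 (SE 0.55, adjusted p = 0.270).

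Plasma carrier proteins and apolipoproteins were higher in 19 of 21 tested (median 0.48; 0.25 without UTOpiA replicate 3 to 0.67 without UTOpiA replicate 2). Of the 21, 2 were separate and higher, and this count and those of the next lists, 2 of 28 and 1 of 14, were close to the 6.15% of all genes. Apoc3, an inhibitor of lipoprotein lipase, had 2840, 2880 and 2730 TPM in the empty and 4320, 3320 and 5140 in the UTOpiA livers, at 0.86 (SE 0.31, adjusted p = 0.412) and 0.51 without UTOpiA replicate 3, and normal livers held 5870 to 6160. Coagulation and fibrinolysis genes were higher in 19 of 28 (median 0.46; 0.22 without UTOpiA replicate 3 to 0.64 without UTOpiA replicate 2). F5 and F10 were separate and higher, and only Plaur was separate and lower, where 5.97% of all genes were. Plaur, the urokinase receptor of leukocytes, had 15.4, 20 and 21.1 TPM in the empty livers and 6.04, 8.46 and 6.25 in the UTOpiA livers, at -1.24 (SE 0.33, adjusted p = 0.332). Urea cycle and ammonia genes were higher in 11 of 14 (median 0.35; 0.20 without empty replicate 3 to 0.70 without empty replicate 2), and only Cps1, which fixes ammonia as carbamoyl phosphate, was separate. Cps1 had 688, 1060 and 661 TPM in the empty livers, 1070, 1180 and 1240 in the UTOpiA livers and 2100 to 2460 in normal livers, so its groups came very close.

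Subunits of the mitochondrial respiratory chain were higher in 39 of 39 tested, by small amounts (0.03 to 0.55 on the log2 scale, median 0.29), and 13 were separate and higher, against 6.15% of all genes. With an ACLF liver left out, 36 to 38 were higher, at medians of 0.18 without UTOpiA replicate 3 to 0.39 without UTOpiA replicate 2. Their mean log2 CPM was 6.01, 6.12 and 6.19 in the empty and 6.42, 6.08 and 6.45 in the UTOpiA livers, which overlapped, with UTOpiA replicate 2 inside the empty range. The size depended on the scale, and on log2(TPM + 1) the median was 0.07. Cox7b, a subunit of complex IV, had 347, 294 and 343 TPM in the empty and 389, 418 and 428 in the UTOpiA livers, at 0.55 (SE 0.19, adjusted p = 0.395) and 0.35 without UTOpiA replicate 3. Ndufa4 had 285, 273 and 292 TPM in the empty livers and 315, 319 and 327 in the UTOpiA livers, still below the 392 to 405 of normal livers.

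Liver transcription factors and nuclear receptors were higher in 20 of 26 tested (median 0.44; 0.21 on log2(TPM + 1); 0.28 without UTOpiA replicate 3 to 0.59 without UTOpiA replicate 2), with 4 separate and higher, against 6.15% of all genes, and 1 lower, against 5.97%. Onecut2, a regulator of hepatocyte and bile duct development, had 9.84, 10.3 and 10.4 TPM in the empty and 17.5, 19.4 and 12.4 in the UTOpiA livers, at 0.87 (SE 0.14, adjusted p = 0.170) with a DESeq2 adjusted p of 9.66e-05 (9.66e-05 to 0.610 over the alternatives). Foxa3, a forkhead factor of hepatocytes, had 22.9, 26.5 and 21.3 TPM in the empty livers and 29.7, 29.4 and 31.3 in the UTOpiA livers, at 0.58 (SE 0.19, adjusted p = 0.395) and 0.38 without UTOpiA replicate 3. Hnf4a had 124, 84.1 and 110 TPM in the empty livers and 131, 106 and 138 in the UTOpiA livers, which overlapped. Cebpd, an acute-phase regulator, was separate and lower with 87.6, 224 and 73 TPM in the empty livers and 25.8, 47.6 and 31.2 in the UTOpiA livers, at -1.71 (SE 0.42, adjusted p = 0.293) and -1.02 without empty replicate 2.

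Several lists showed little or mixed difference or leaned to one side. Over all genes, 12.1% were separate in either direction. Fatty acid oxidation and ketone formation had 18 genes higher and 16 lower of 34 (median 0.02; -0.15 without empty replicate 2 to 0.32 without empty replicate 1), with only Pdk4 separate. Cell cycle and DNA replication had 24 of 35 higher with 0 separate (median 0.11, and -0.05 on log2(TPM + 1); -0.10 without UTOpiA replicate 1 to 0.38 without empty replicate 2). Cholesterol and fatty acid synthesis had 30 of 37 higher (median 0.38), which ranged from 0.06 without empty replicate 3 to 1.09 without empty replicate 2. Matrix and stellate cell genes were lower in 31 of 45 (median -0.25; -0.41 without UTOpiA replicate 2 to -0.12 without UTOpiA replicate 3) with 0 separate. The integrated stress and unfolded protein response had 14 higher and 17 lower of 31 at a median of -0.045. Without UTOpiA replicate 3 the median was -0.26 and 24 were lower. Of the 31, 0 were separate and higher (6.15% of all genes) and 2 separate and lower (5.97%). p53 targets went both ways, with 8 higher and 11 lower of 19, 3 separate and higher (6.15% of all genes) and 5 separate and lower (5.97%). Aen, a p53-induced nuclease, had 12.9, 16.9 and 19.4 TPM in the empty and 6.92, 8.72 and 5.9 in the UTOpiA livers, at -0.99 (SE 0.17, adjusted p = 0.177). NRF2 targets, metallothioneins and heme oxygenase were lower in 15 of 21 (median -0.31; -0.42 without empty replicate 1 to -0.07 without UTOpiA replicate 2). Of the 21, 5 were separate and lower, against 5.97% of all genes, and 0 separate and higher, against 6.15%. Akr1b8, an aldo-keto reductase of this list, had 24.3, 16.9 and 33.4 TPM in the empty livers and 2.07, 10.8 and 3.51 in the UTOpiA livers, at -2.05 (SE 0.56, adjusted p = 0.346).

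**Figure D4:**
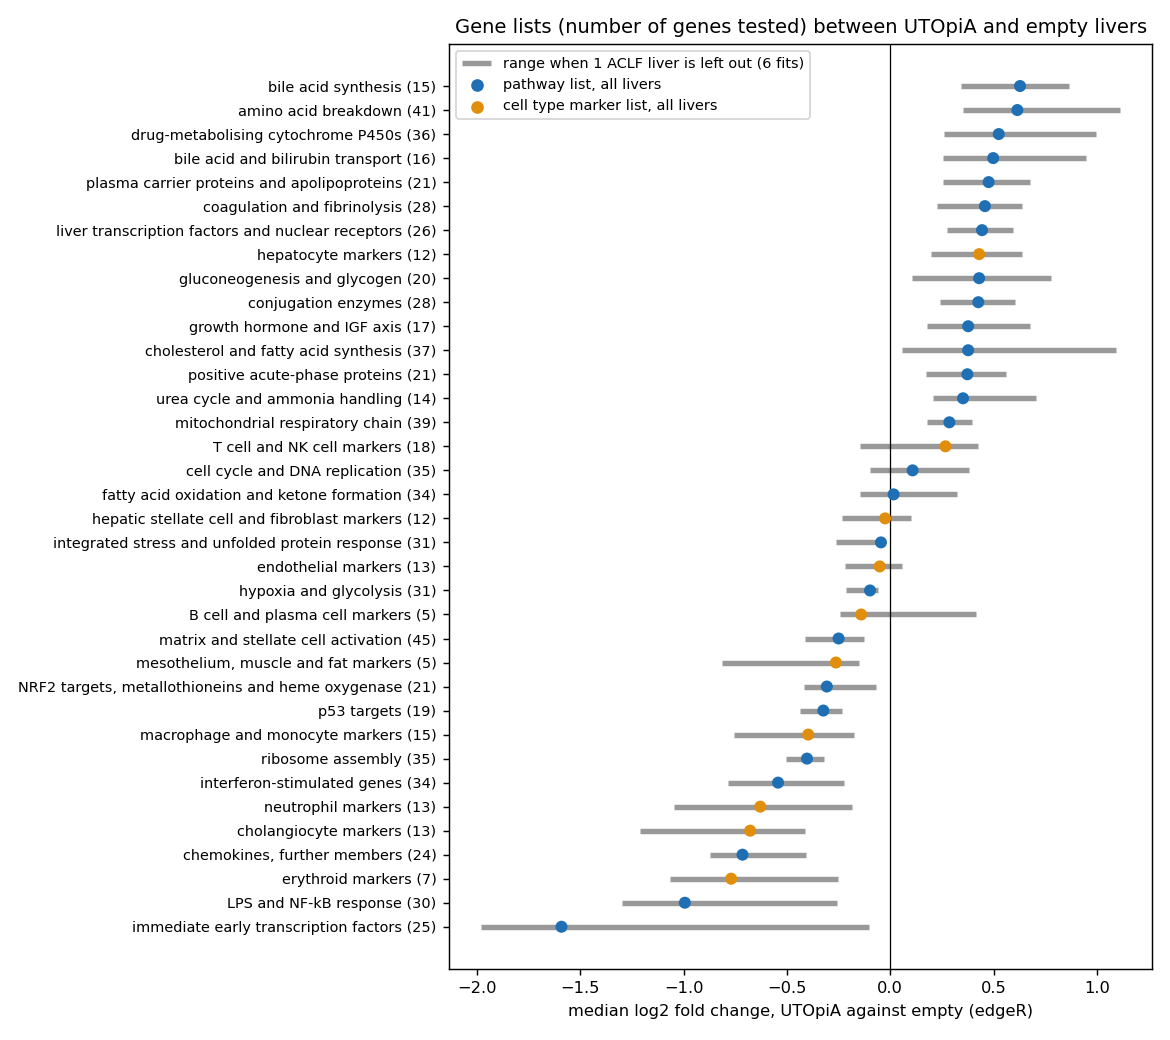
Median log2 fold change (UTOpiA against empty, edgeR) of each gene list, with the number of genes tested in brackets, blue dots for pathway lists and orange dots for cell type markers, and grey bars for the range when an ACLF liver is left out. Bile acid synthesis is at 0.63 and amino acid breakdown at 0.62, the LPS and NF-kB response at -0.99 and immediate early factors at -1.59, and the bars of the last 2 reach -0.26 and -0.11.

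Markers of cell types are given beside these lists. Summed TPM of the erythroid markers above did not overlap between the ACLF groups. Neutrophil markers with Lcn2 included did not overlap either, at 978 to 2760 TPM in the empty and 5570 to 6770 in the UTOpiA livers. Mesothelium, muscle and fat markers had 418 to 756 TPM in the empty and 113 to 404 in the UTOpiA livers, also without overlap. The sums that follow overlapped. Hepatocyte markers were higher in 9 of 12 (median 0.43; 0.20 without empty replicate 1 to 0.64 without UTOpiA replicate 2), and their summed TPM ranged from 33300 to 59700 in the empty and 38900 to 59900 in the UTOpiA livers, which overlapped. Cholangiocyte markers were lower in 12 of 13 (median -0.68; -1.21 without UTOpiA replicate 2 to -0.41 without UTOpiA replicate 3), with sums of 565 to 1110 and 252 to 817 TPM, and UTOpiA replicate 2 lay within the empty range. Macrophage and monocyte markers were lower in 11 of 15 (median -0.40; -0.76 without UTOpiA replicate 2 to -0.17 without empty replicate 1), with sums of 2070 to 3570 and 1080 to 3580 TPM and 0 separate. T cell and NK cell markers were higher in 13 of 18 (median 0.27; -0.14 without UTOpiA replicate 1 to 0.42 without empty replicate 1; 0.04 without empty replicate 2), with sums of 87.8 to 136 and 53.5 to 129 TPM. Stellate and endothelial markers were split evenly, at 6 higher and 6 lower of 12 and 6 higher and 7 lower of 13. In bulk tissue, fewer cells of a type and less RNA per cell cannot be told apart. The part of cell composition in the differences above was not tested.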

How the data were processed

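Bulk polyA RNA-seq of 9 rat livers was used, 3 normal, 3 ACLF with the empty circuit and 3 ACLF with UTOpiA, each assigned by its label, which names biological replicates. The authors deposited raw read counts per gene, without normalisation, and TPM, which they scaled by gene length and library total. The study's methods name Cutadapt, HISAT2 on the mouse build GRCm38, featureCounts and an MGIEasy kit, whereas the submitters' processing notes name Trimmomatic, HISAT2, featureCounts and the rat build rn6, and the labels NEBNext directional kits. The genes edited in the human cells of the circuit are not reported here. The tables list rat genes, and positions are given as deposited. Whether counting used strand is not given in the sources used here, so overlapping genes may share reads.

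The counts went into edgeR 4.0.16 (R 4.3.3). Its filterByExpr, given the 3 groups, left 14089 of 32883 genes. TMM factors, a mean per group over all 9 libraries and the robust, two-sided quasi-likelihood test followed, and a call needed over 2-fold and an adjusted p (Benjamini-Hochberg) below 0.05. A gene was separate when all 3 values of a group lay beyond all 3 of the other. Library totals were 14241172 to 17321677 counts, and the SD of log2 CPM had a median of 0.189 among normal, 0.298 among empty and 0.303 among UTOpiA livers. Libraries of one group were distinct, since replicate pairs differed by a chi-square per degree of freedom of 16.7 to 225, where counting noise alone gives 1.

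Genes were named by rule from protein-coding genes with a symbol, separate in CPM and TPM and not among the cytokines named in the study. These were the 12 with the widest gap in each direction at a mean of at least 5 TPM, 6 more in each direction at a mean of at least 100 TPM, up to 4 members of each list at a mean of at least 1 TPM, and the genes of counts of 5 or fewer. Nfkbia, Nfkbiz, Ftcd, Uroc1, Hnf4a and Cyp2c11 were added after their values were seen. The members and lists were chosen with earlier results of these data known. Lists were described by counts and medians without a test.

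The alternatives were DESeq2 1.42.0, limma 3.58.1 on log2(TPM + 1) and log2(TPM + 0.1), median-of-ratios factors, other count filters, no fold threshold, only the 6 ACLF libraries, the replicate number as a block and each library left out. DESeq2 without each ACLF library was added after the values were seen. Tested on simulated counts of these groups (13819 genes, 200 of them altered 4-fold), edgeR found 163 of the altered genes (81.5%) with 13 false calls, and DESeq2 found 178 with 38 false calls. The simulated libraries were drawn independently around the group means, with no outlying library. The livers here had such libraries, so these rates cannot be carried over to them. Promoters came from RefSeq, build GRCr8, matched by gene identifier or symbol.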

Additional observations from a re-analysis of the deposited data

How the results depend on the processing

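The count of 0 genes called by edgeR in each direction was also 0 with limma on log2(TPM + 1) and log2(TPM + 0.1), median-of-ratios factors, no filter, a minimum of 10 counts per library, any fold size and only the 6 ACLF libraries, at a smallest adjusted p of 0.0709 (limma on log2(TPM + 1)) to 0.61 (6 libraries). DESeq2 called 53 higher and 71 lower. Leaving out a library gave 0 to 32 genes higher and 0 to 21 lower with edgeR: 26 and 21 without empty replicate 2, 32 and 17 without UTOpiA replicate 2, and 0 and 1 (Selenow, named after its values were seen) without empty replicate 3. DESeq2 with an ACLF library left out, added after seeing the data, called 24, 228 and 38 higher and 25, 349 and 54 lower without UTOpiA replicates 1, 2 and 3, and 78, 353 and 31 higher and 100, 134 and 72 lower without empty replicates 1, 2 and 3. Why the tools differ was not tested. Separate higher genes went from 867 to 342 in TPM as deposited and were 740 to 1037 under the other settings, and separate lower genes were 708 to 1214. Of the 85 named genes, 40 passed the threshold under at least 1 alternative (DESeq2 gave 37, and leaving out empty replicate 2 or UTOpiA replicate 2 gave 7 each; some genes recur), and 0 changed sign with a call. List medians moved beyond their spread in 18 cases.

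The replicate numbers did not pair the livers: deviations from the group mean of same-numbered libraries correlated at -0.129, -0.172 and -0.131, and no library correlated best with its own number. With the replicate number as a block, edgeR called 0 genes higher and 0 lower, at a smallest adjusted p of 0.0809.

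Depth limits genes of few counts such as Nos2. With 3 livers a group and an outlying library in each, differences that the test did not call cannot be read as absent.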

Other observations

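In all, 29 genes, some of them list members, were DESeq2 calls in all 6 fits that left out an ACLF liver, and all 29 were separate in CPM. The 11 higher ones include Akr1b7, Amdhd1, Bhmt, Cyp17a1, Gbp3, Iqcg and Tfrc, and the 18 lower ones include Ccl21, Duox1, Duoxa1, Fgl2, Ifrd1, Il1rn, Nos2, Rgs1, Rgs16, Rrp12, Slc25a47, Slfn4, Snx10, Steap4, Tmem252, Zc3h12a and Zfp354a. Akr1b7, an aldo-keto reductase, had 0, 0 and 0 counts in the empty livers, 24, 2 and 58 in the UTOpiA livers and 25, 35 and 53 in normal livers.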
